A study of Mus musculus with 8 samples.

Results

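A set of 10 genes of major histocompatibility complex (MHC) class I presentation was examined in bulk RNA-Seq of KPC tumors grown in wild-type (WT) and complement C3-null (C3-/-) mice. The 10 genes were taken by name from the 29968 genes of the deposited table. They were the heavy chains H2-K1 and H2-D1, the light chain B2m, the peptide transporter subunits Tap1 and Tap2, the loading chaperone Tapbp (tapasin), the immunoproteasome subunits Psmb8 and Psmb9, the peptide-trimming enzyme Erap1 and the transcriptional activator Nlrc5. All 10 were among the 16610 genes that had enough counts to be tested.

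KPC FC1245 is a cell line isolated from the pancreatic tumor of a genetically engineered mouse in which Cre recombinase was expressed in the pancreas. Male mice, 12 weeks old, received 250000 of these cells in 50 μL of PBS in the tail of the pancreas. Tumors were collected at the study endpoint. One group was of C57BL/6J hosts (WT, n = 4) and the other of C3-/- hosts, also C57BL/6J (n = 4), and both groups bore tumors. The injected cells were of a single line and retained C3, so that the deletion was present in the host cells of a C3-/- tumor and not in the injected cells. The comparison addresses whether host C3 affected the tumor transcriptome, here that of the class I presentation genes. Each tumor was labeled as a separate replicate of its genotype, and p-values measure the spread between these tumors.

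MHC class I molecules display short peptides from the cell interior to CD8+ T cells and inhibit natural killer cells that carry matching receptors. Proteasomes cut the peptides, the Tap1-Tap2 transporter moves them into the endoplasmic reticulum, Erap1 trims them there, and Tapbp holds the heavy chain and B2m close to the transporter while a peptide is loaded. Interferon-γ acts in part through Irf1 and Nlrc5 to raise transcription of most of these genes, and loss of class I presentation is a known route of immune escape in pancreatic cancer.

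Of the 10 genes, 7 lay on chromosome 17 within 1.35 Mb of mm39, from position 34134873 to 35486475, in the mouse MHC. Psmb9, Tap1, Psmb8 and Tap2 formed a compact group. Psmb9 (chromosome 17, 34400961 to 34406738, minus strand) overlapped the first part of Tap1 (34406527 to 34416199, plus strand) by 212 bases. Psmb8 (34416695 to 34420428) began 495 bases beyond Tap1, and Tap2 (34422501 to 34435295) began 2072 bases beyond Psmb8. Tapbp (34134873 to 34148266) and H2-K1 (34214991 to 34219321, minus strand) were on one side of this group, and H2-D1 (35481706 to 35486475) was on the other. The other three were B2m on chromosome 2 (121978167 to 121983564), Nlrc5 on chromosome 8 (95160984 to 95253900) and Erap1 on chromosome 13 (74787687 to 74841320), each on the plus strand.

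The promoter sequences are shown for 4 members because they carry the recognition letters of factors that act on class I genes, and because both heavy chains share some of them. RefSeq windows (GRCm38.p6) from 250 bases before to 50 bases after the annotated start were matched for 8 of the 10 genes, and those of Tap2 and Nlrc5 were not analysed here. Each is written 5′ to 3′ on the strand of its gene, and capitals mark matches to GGGGANTCCC (an NF-kB site), GAAANNGAAA (the core of the interferon-stimulated response element), TTCNNNGAA (a gamma-activated site), CCAAT or TATAAA on either strand. The windows are chr17:34000298-34000597 (minus strand) for H2-K1, chr17:35262844-35263143 (plus strand) for H2-D1, chr2:122147437-122147736 (plus strand) for B2m and chr17:34187306-34187605 (plus strand) for Tap1.
H2-K1: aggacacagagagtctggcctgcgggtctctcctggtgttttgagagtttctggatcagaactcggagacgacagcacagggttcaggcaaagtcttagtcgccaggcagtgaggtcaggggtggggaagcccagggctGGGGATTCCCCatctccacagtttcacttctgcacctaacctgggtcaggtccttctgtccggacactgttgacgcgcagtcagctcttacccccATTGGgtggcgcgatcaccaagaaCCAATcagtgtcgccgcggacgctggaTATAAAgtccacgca
H2-D1: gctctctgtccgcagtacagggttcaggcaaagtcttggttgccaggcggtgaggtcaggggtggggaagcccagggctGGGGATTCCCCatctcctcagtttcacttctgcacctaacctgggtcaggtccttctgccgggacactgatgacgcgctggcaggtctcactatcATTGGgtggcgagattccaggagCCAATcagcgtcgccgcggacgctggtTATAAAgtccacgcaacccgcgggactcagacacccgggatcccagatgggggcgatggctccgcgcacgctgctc
B2m: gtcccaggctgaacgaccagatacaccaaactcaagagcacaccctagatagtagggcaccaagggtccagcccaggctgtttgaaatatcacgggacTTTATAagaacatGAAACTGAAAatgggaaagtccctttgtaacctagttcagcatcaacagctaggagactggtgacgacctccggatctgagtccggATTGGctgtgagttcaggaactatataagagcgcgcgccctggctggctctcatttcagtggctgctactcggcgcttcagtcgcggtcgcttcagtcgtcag
Tap1: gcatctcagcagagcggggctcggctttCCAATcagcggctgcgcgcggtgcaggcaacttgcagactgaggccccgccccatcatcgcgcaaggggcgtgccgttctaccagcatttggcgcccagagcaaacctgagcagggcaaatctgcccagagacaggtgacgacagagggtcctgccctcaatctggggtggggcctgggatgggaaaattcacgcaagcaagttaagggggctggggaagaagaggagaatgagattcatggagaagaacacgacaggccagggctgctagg

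The windows of H2-K1 and H2-D1 both held GGGGANTCCC, on overlapping bases of both strands, and 0.323% of all 32851 RefSeq windows of this length held it. In each of them the match was followed by a reversed CCAAT, a forward CCAAT and TATAAA in the same order. An alignment of both windows had 214 identical bases over 361 columns (59.3%), and these columns include gaps because the windows are offset. The match to GGGGANTCCC began 111 bases before the annotated start in H2-K1 and 171 bases before it in H2-D1. The percentage is therefore lower than over the paired bases alone. H2-K1 had 2 entries in RefSeq, and in the one used here the match to TATAAA began 35 bases after the annotated start, while that of H2-D1 began 26 bases before it. GAAANNGAAA was found in B2m, 139 bases before the start, and in Erap1, and in 3.44% of all windows. TTCNNNGAA was found in Psmb8 and in 8.30% of all windows. CCAAT was found in 6 of the 8 windows and TATAAA in 4, against 37.4% and 13.6% of all windows. The windows of Tap1 and Psmb9, which are transcribed away from each other, shared 275 bases. These matches describe letters and do not show that a factor bound there. Only exact letters were sought, so a window without a match, as those of H2-K1 and H2-D1 for GAAANNGAAA, can still hold a variant of a site.

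Values are counts per 1 M of the tumor's TMM-scaled total (CPM) unless given as FPKM. FPKM also divides by the deposited gene length and is the scale on which levels of different genes are compared. Such levels depend on the annotated lengths. Total counts were 13.27 M to 23.35 M per tumor, over 22174 to 25343 genes with a count. C3, the gene deleted in the host, was measured at 296 ± 100.1 CPM in WT and 111 ± 15.7 in C3-/- tumors (SD, n = 4), and the 2 groups did not overlap. Its log2 fold change (C3-/- over WT, throughout) was -1.42. After Benjamini-Hochberg adjustment p was 0.933 by edgeR and 1.28e-05 by DESeq2. Tumor epithelial markers (keratins, Epcam and Cdh1) summed to 5245 to 9895 CPM, so that the labeled tissue was represented in every tumor, and none of the 6 had an adjusted p below 0.05. Other pancreatic and nearby tissue differed between tumors. Acinar markers summed to 1752 CPM in C3-/- replicate 1 and to 39.0 to 66.8 in the other C3-/- tumors, against 182 to 488 in WT tumors. Skeletal muscle markers summed to 1135 CPM or more in 5 tumors and to 1.73 or less in the others. Hepatocyte markers summed to 72.3 CPM in WT replicate 4 and to 11.2 to 25.4 elsewhere, and islet markers to 94.6 CPM in WT replicate 2 and to 0.498 to 4.16 elsewhere. The part of these tissues in the values of the class I genes was not tested.

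For none of the class I genes was a difference between genotypes larger than the spread between tumors found. In edgeR's quasi-likelihood test with Benjamini-Hochberg adjustment, 0 of the 10 had an adjusted p below 0.05, and the adjusted p-values were between 0.971 and 0.999. Over all 16610 genes, 0% were called by this test. DESeq2 also called 0 of the 10, against 0.0799% of the 20024 genes for which it gave an adjusted p. At an unadjusted p below 0.05, 1 of the 10 genes (Nlrc5, higher in C3-/- tumors) was reached in edgeR, against 5.11% of all genes tested (3.03% higher and 2.07% lower in C3-/- tumors). The 2 groups of tumors overlapped for all 10 genes, while they did not overlap for 3.73% of genes tested. Of the 10 log2 fold changes, 8 were above 0, with a median of 0.09, against 49.994% and a median of -0.000058 over all genes tested. The median of the members moved with single tumors and was 0.015 without WT replicate 2 and 0.051 without C3-/- replicate 1 (6 genes above 0 in both cases), and 0.27 without WT replicate 3, 0.23 without C3-/- replicate 2 and 0.14 without C3-/- replicate 3 (9, 10 and 9 genes above 0). In a bulk tumor, fewer cells that express a gene and less RNA per cell cannot be told apart.

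**Figure D1:**
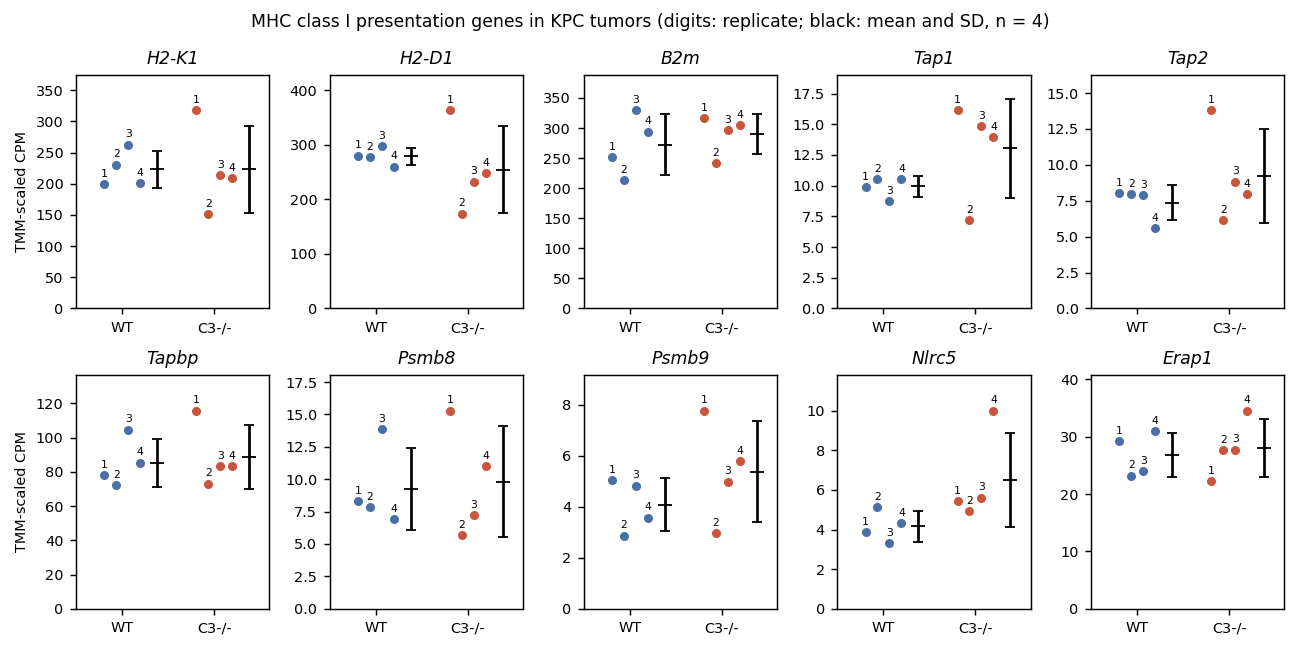
TMM-scaled CPM of the 10 class I presentation genes in each tumor (points, numbered by replicate), with the mean and SD of 4 tumors per genotype in black. WT and C3-/- tumors overlap in every panel, and C3-/- replicate 1 is the highest point for 7 of the 10 genes.

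The heavy chains bind the peptide and carry the surface that T cells read. H2-K1 was measured at 199, 231, 263 and 201 CPM in WT replicates 1 to 4 and at 318, 151, 214 and 209 CPM in C3-/- replicates 1 to 4. The highest and the lowest of the 8 tumors were both C3-/-, and the group means were the same to 3 digits, 223 ± 29.9 and 223 ± 69.3 (SD, n = 4). For H2-K1 the log2 fold change came to -0.0013 (SE 0.21, 95% interval -0.46 to 0.46).

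H2-D1 was measured at 280.0, 278, 297 and 259.8 CPM in WT replicates and at 363, 174, 232 and 248 CPM in C3-/- replicates. Among the C3-/- tumors, 3 were below every WT tumor and replicate 1 was above every WT tumor, so that the groups overlapped. The WT tumors lay close together (279 ± 15.3 CPM, SD, n = 4) and the C3-/- tumors did not (255 ± 79.3, SD, n = 4). The log2 fold change was -0.13 (SE 0.20, 95% interval -0.57 to 0.31), and it was -0.35 when C3-/- replicate 1 and 0.015 when C3-/- replicate 2 was left out. Counts of both heavy chains were high in every tumor, between 2705 and 7764. Of the 100-base stretches in their transcripts, 2.03% for H2-K1 and 2.53% for H2-D1 also occurred in another gene of the family, so that a small part of their reads could have been assigned to either.

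B2m encodes the invariant light chain that class I heavy chains need to reach the cell surface. It was measured at 251, 213, 329.6 and 294 CPM in WT replicates and at 317, 241, 296 and 305 CPM in C3-/- replicates. All 4 C3-/- tumors lay within the range of the WT tumors. B2m had a log2 fold change of 0.09 (SE 0.16, 95% interval -0.26 to 0.44), on means of 272 ± 50.7 and 289.7 ± 33.5 CPM (SD, n = 4).

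Tap1 and Tap2 form the transporter that brings peptides into the endoplasmic reticulum. Tap1 was measured at 9.89, 10.5, 8.74 and 10.6 CPM in WT replicates and at 16.1, 7.17, 14.9 and 13.9 CPM in C3-/- replicates. Among the C3-/- tumors, 3 were above every WT tumor and replicate 2 was below every WT tumor. The means were 9.93 ± 0.854 and 13 ± 4.01 CPM (SD, n = 4), and the log2 fold change of 0.39 (SE 0.25, 95% interval -0.15 to 0.94) had an adjusted p of 0.99 in edgeR. Tap2 was measured at 8.02, 7.99, 7.91 and 5.57 CPM in WT replicates and at 13.8, 6.16, 8.83 and 7.98 CPM in C3-/- replicates. Only C3-/- replicates 1 and 3 exceeded all WT tumors, while WT replicate 4 was the lowest of the 8. The log2 fold change of Tap2 was 0.32 (SE 0.27, 95% interval -0.27 to 0.91), and it was 0.06 without C3-/- replicate 1. The Tap1 value rested on 116 to 345 counts per tumor and the Tap2 value on 105 to 295. Tap1 overlaps Psmb9, and Tap2 overlaps Gm15821, on opposite strands, and the strand setting of the counting is not given in the sources used here, so reads from the shared bases are of uncertain origin.

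Tapbp, which bridges the transporter and the empty class I molecule, was measured at 78.2, 72.3, 105 and 85.4 CPM in WT replicates and at 116, 73.2, 83.1 and 83.3 CPM in C3-/- replicates. C3-/- replicate 1 was the highest tumor and WT replicate 2 the lowest, and the other C3-/- tumors lay inside the WT range. The log2 fold change was 0.06 (SE 0.17, 95% interval -0.31 to 0.44). Tapbp shares 3422 bases with Zbtb22 on the same strand, and 12.2% of the 100-base stretches in its transcripts also occurred in another gene. Erap1, the peptidase that shortens peptides to the length that class I binds, was measured at 29.3, 23.2, 24 and 30.9 CPM in WT replicates and at 22.2, 27.7, 27.7 and 34.6 CPM in C3-/- replicates. Here C3-/- replicate 1 was the lowest tumor, the reverse of its place for most other members. Erap1 had a log2 fold change of 0.06 (SE 0.17, 95% interval -0.31 to 0.43). It shares 834 bases with Cast on the opposite strand, so that reads from there are of uncertain origin.

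Psmb8 and Psmb9 replace the catalytic subunits Psmb5 and Psmb6 when immunoproteasomes are built. Psmb8 was measured at 8.33, 7.84, 13.9 and 6.89 CPM in WT replicates and at 15.3, 5.66, 7.25 and 11 CPM in C3-/- replicates. C3-/- tumors were both the highest and the lowest, with WT replicate 3 second. The log2 fold change was 0.09 (SE 0.34), the widest 95% interval of the 10 genes (-0.66 to 0.84). Psmb9 was measured at 5.04, 2.86, 4.82 and 3.57 CPM in WT replicates and at 7.77, 2.97, 4.98 and 5.80 CPM in C3-/- replicates. Replicate 1 and replicate 4 of the C3-/- tumors were above all WT tumors, while replicate 2 was close to the lowest WT tumor. Psmb9 had a log2 fold change of 0.40 (SE 0.32, 95% interval -0.31 to 1.11), 0.17 without C3-/- replicate 1, on 38 to 166 counts per tumor.

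Nlrc5, the activator recruited to class I promoters, had the largest log2 fold change of the 10 genes. It was measured at 3.86, 5.12, 3.31 and 4.34 CPM in WT replicates and at 5.43, 4.93, 5.61 and 10 CPM in C3-/- replicates. In 3 C3-/- tumors it was above every WT tumor, and replicate 2 was just below WT replicate 2, which was the only overlap. The means were 4.16 ± 0.768 and 6.49 ± 2.36 CPM (SD, n = 4). The log2 fold change was 0.64 (SE 0.28, 95% interval 0.02 to 1.26), a fold of 1.56. Its p was 0.045 before and 0.971 after adjustment in edgeR, and DESeq2 gave 0.845 after adjustment. Leaving out C3-/- replicate 4, the tumor with 10 CPM, lowered it to 0.35. Counts were 44 to 183 per tumor, and 748 bases of Nlrc5 are shared with 9330175E14Rik on the opposite strand.

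Levels of the 10 genes spanned a wide range when divided by length. In WT tumors, B2m was the most abundant at 314 ± 57.6 FPKM (SD, n = 4), followed by H2-D1 at 107 ± 5.95 and H2-K1 at 75.4 ± 9.92. Tapbp followed at 23.3 ± 3.79 FPKM, then Erap1 at 3.66 ± 0.524 and Psmb8 at 2.71 ± 0.917. Tap2 at 1.94 ± 0.320 FPKM, Tap1 at 1.80 ± 0.155, Psmb9 at 1.10 ± 0.283 and Nlrc5 at 0.486 ± 0.0896 were the least abundant. The loading chaperone was thus more abundant than the transporter and the immunoproteasome subunits in each WT tumor. Erap1 and Psmb8, Psmb8 and Tap2, and Tap2 and Tap1 were neighbors whose ranges over the WT tumors overlapped, and the ranges of the other neighbors did not. C3-/- tumors had the same order of mean levels, from B2m at 333 ± 38.8 FPKM to Nlrc5 at 0.755 ± 0.273 (SD, n = 4), but there the ranges of H2-D1 and H2-K1, of Tap1 and Psmb9, and of Psmb9 and Nlrc5 overlapped as well.

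The balance between exchangeable subunits was compared as the ratio of their FPKM values within a tumor, which does not depend on how the tumor's total was scaled. Psmb9 was 1.77% ± 0.417 of Psmb6 in WT and 2.62% ± 0.716 in C3-/- tumors (SD, n = 4). The single values were 2.35%, 1.43%, 1.51% and 1.78% in WT and 2.15%, 1.95%, 2.85% and 3.53% in C3-/- tumors, so that the groups overlapped through WT replicate 1. The log2 ratio was 0.56 higher in C3-/- tumors (95% interval -0.06 to 1.17), with p = 0.086 by an exact two-sided permutation test and an adjusted p of 0.429 over 5 ratios. Psmb8 was 3.02% ± 0.441 of Psmb5 in WT and 3.54% ± 0.691 in C3-/- tumors (exact permutation p = 0.314, n = 4 each). Psmb10, the remaining inducible subunit, was 69.5% ± 9.76 of its counterpart Psmb7 in WT and 84.1% ± 23.9 in C3-/- tumors (exact permutation p = 0.4, n = 4 each), with 119% in C3-/- replicate 1. A comparison of 4 tumors with 4 cannot give a p below 0.0286 in this test. The percentages rest on deposited gene lengths, which differ within a pair. They were 3381 bases for Psmb8 and 899 for Psmb5, and 3660 for Psmb9 and 1872 for Psmb6. For Psmb10 and Psmb7 they were 1705 and 3421. The size of a percentage therefore depends on the annotation, whereas the log2 difference between genotypes does not.

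The heavy chains were then set against the light chain. H2-K1 was 24.6% ± 4.99 of B2m in WT and 22.2% ± 4.89 in C3-/- tumors (exact permutation p = 0.457, n = 4 each). H2-D1 was 35.0% ± 6.62 of B2m in WT and 28.9% ± 6.36 in C3-/- tumors (exact permutation p = 0.2, n = 4 each), and its log2 ratio differed by -0.28 (95% interval -0.77 to 0.20), -0.17 without WT replicate 2 and -0.43 without C3-/- replicate 1. Both heavy chains were highest relative to B2m in WT replicate 2, the tumor with the least B2m, and lowest in C3-/- replicate 2 among all 8 tumors. The percentages again rest on deposited gene lengths, 2938 bases for H2-K1, 2579 for H2-D1 and 860 for B2m.

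**Figure D2:**
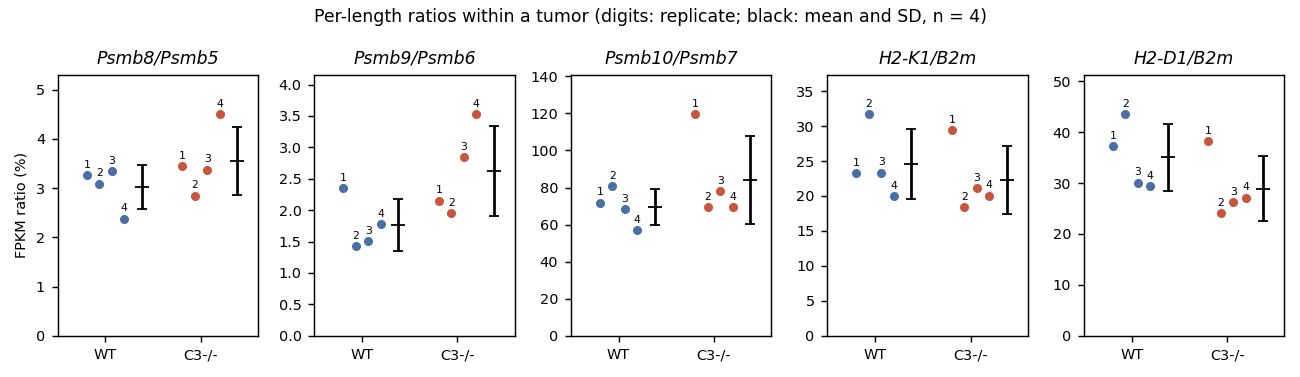
FPKM of one subunit as a percentage of its counterpart in each tumor (points, numbered by replicate), with the mean and SD of 4 tumors per genotype. The groups overlap in all 5 panels, and Psmb9/Psmb6 has the largest difference on the log2 scale, 0.56.

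Most members were high or low together in the same tumors. C3-/- replicate 1 had the highest value of H2-K1, H2-D1, Tap1, Tap2, Tapbp, Psmb8 and Psmb9, and C3-/- replicate 2 had the lowest value of 4 genes. Their CPM summed to 873, 851, 1057 and 902 in WT replicates and to 1194, 694, 895 and 929 in C3-/- replicates, 0.0713% to 0.114% of all counts. The highest tumor exceeded the lowest by 1.55-fold for B2m and Erap1 and by 3.02-fold for Nlrc5, with the other genes between. Over the 8 tumors and on log2 CPM, Pearson's r between pairs of members had a median of 0.52 over 45 pairs (-0.62 to 0.93), given as a description because the members share the same libraries. The 7 genes on chromosome 17 had r between 0.42 and 0.93 over their 21 pairs, with a median of 0.72, and the pair with 0.93 was H2-K1 and H2-D1. Nlrc5 had a median r of 0.08 with the other members and Erap1 had -0.38.

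**Figure D3:**
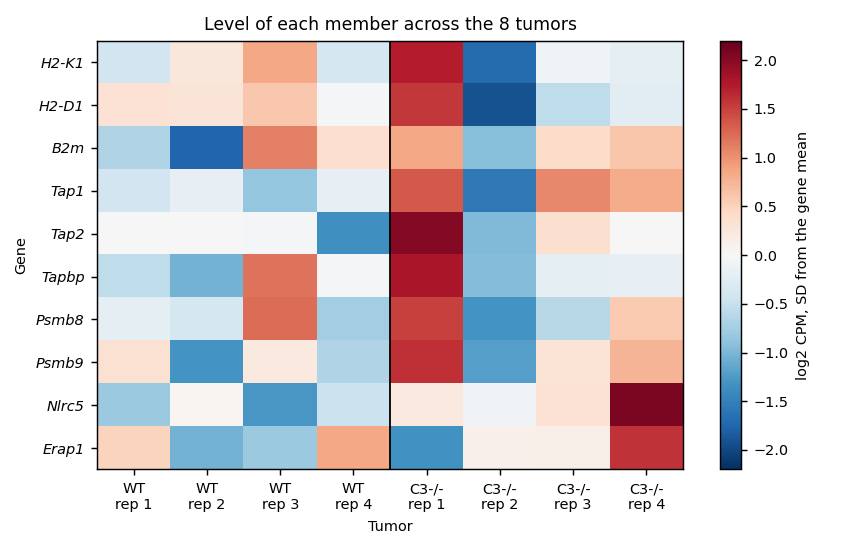
Log2 CPM of each member in each tumor, as the number of SDs from the mean of that gene over the 8 tumors (red above, blue below). C3-/- replicate 1 is red for all genes except Erap1, C3-/- replicate 2 is blue for most, and Nlrc5 and Erap1 follow a different pattern, with C3-/- replicate 4 highest.

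Whether the regulators followed the members was examined with correlations over the 8 tumors, of which 19 relate Nlrc5 or Irf1 to the other members. None of the 19 had a permutation p below 0.05 after adjustment over the 29 relations computed, by Pearson's r or by Spearman's rho, and 13 of the values of r were above 0. Nlrc5 ranged from r = -0.17 with H2-D1 to 0.56 with Tap1 (permutation p = 0.138, adjusted p = 0.678; rho = 0.71, permutation p = 0.058). Irf1 ranged from r = -0.22 with H2-D1 to 0.51 with Psmb9 (permutation p = 0.202, adjusted p = 0.678; rho = 0.55, permutation p = 0.171). Without WT replicate 3 and C3-/- replicate 4, the tumors farthest from the median of Nlrc5, r with Tap1 was 0.51. Without WT replicates 2 and 3, the tumors farthest from the median of Irf1, r with Psmb9 was 0.40. With the genotype means removed, r was 0.41 for Nlrc5 with Tap1 and 0.38 for Irf1 with Psmb9.

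The genes whose log2 CPM was most like the mean of the 10 members over the 8 tumors, each member standardized, were Mid1ip1, Tmem109, Noa1, Tmem88, Ehbp1l1, Runx3, Siglecg and Gna15, with Pearson's r of 0.95 to 0.97. Of all genes outside the members, 69 had r of 0.9 or more. With 8 tumors and 16610 genes ranked, such values are a description, and they have no test. None of the 8 was in the list of interferon targets.

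Leukocytes express class I genes at high levels, so leukocyte markers were read beside the members. The 10 markers (Ptprc, Cd52, Coro1a, Laptm5, Tyrobp, Lyz2, Adgre1, Cd68, Csf1r and Itgam) summed to 884, 916, 1092 and 855 CPM in WT replicates and to 1397, 675, 879.9 and 1443 CPM in C3-/- replicates. C3-/- replicate 1 was high and C3-/- replicate 2 low in both sums, whereas C3-/- replicate 4, with the most leukocyte marker RNA, was below C3-/- replicate 1 and WT replicate 3 in the sum of the members, most of which is H2-K1, H2-D1 and B2m. In the mean of the standardized log2 CPM, which weights the 10 members equally, C3-/- replicate 4 (0.57) was second to C3-/- replicate 1 (1.13) and above WT replicate 3 (0.22). None of the 10 markers had an adjusted p below 0.05, 8 had a log2 fold change above 0, and the median was 0.22. Ptprc (CD45), carried by all nucleated leukocytes, was 21.4 ± 0.906 CPM in WT and 30.6 ± 9.20 in C3-/- tumors (SD, n = 4), without overlap (log2 fold change 0.52, adjusted p of 0.965 in edgeR, and 0.29 without C3-/- replicate 4). Itgam, of myeloid cells, had a log2 fold change of -0.57 (adjusted p of 0.971 in edgeR) and Adgre1, of macrophages, 0.44 (adjusted p of 0.985 in edgeR). Without WT replicate 3 Itgam was -0.36, and without C3-/- replicate 4 Adgre1 was 0.19. The part of leukocyte content in the values of the class I genes was not tested. Of the genes of cells that read class I, in T and natural killer cells, only Klrc1 and Cd8a passed the count filter, with log2 fold changes of -0.36 and 0.84 and neither called, and Cd8a rested on 1 to 20 counts per tumor. The value of Cd8a was 0.40 without WT replicate 4 and 1.57 without WT replicate 1.

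The rest of the pathway was represented by 45 further genes in 4 lists, of which 41 were tested and 0 called by edgeR or DESeq2. Of the 41 log2 fold changes, 22 were above 0 and 19 below, with a median of 0.06. An unadjusted p below 0.05 was reached by 5 genes with higher and 1 with lower values in C3-/- tumors, against 3.03% and 2.07% of all genes tested. Other class I heavy chains (11 tested) had a median of 0.15, other proteasome subunits and activators (6) -0.11, other loading factors (6) -0.05, and regulators (18) 0.12. H2-Q1, H2-Q2, H2-Q6 and H2-T3 had too few counts to be tested. Calr, the calreticulin chaperone of the loading complex, was 745 ± 153 CPM in WT and 727 ± 71.6 in C3-/- tumors (SD, n = 4).

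The regulators held most of those 6 genes. Irf1, the interferon-induced factor that binds class I promoters, was measured at 29, 22, 23.6 and 27.7 CPM in WT replicates and at 37.7, 34.6, 38.3 and 33.0 CPM in C3-/- replicates. Every C3-/- tumor was above every WT tumor, as in 2.28% of genes tested. Irf1 had a log2 fold change of 0.49 (SE 0.13). Its p was 0.00457 before and 0.933 after adjustment in edgeR, and DESeq2 gave 0.359 after adjustment. Nfya, a subunit of the factor that binds CCAAT, had a log2 fold change of 0.48 (SE 0.16) and an adjusted p of 0.96 in edgeR, with C3-/- replicate 1 inside the WT range. H2-T24, a nonclassical heavy chain, had 0.997 (SE 0.35) and an adjusted p of 0.96 in edgeR on 17 to 105 counts, and it lies wholly within an antisense gene. Also among the 6, and named after their values were seen, were Socs1, an inhibitor of interferon signaling (0.61), and Cd1d1, a lipid-presenting molecule (-0.48). Irf1 also overlaps an antisense gene, Gm17334.

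**Figure D4:**
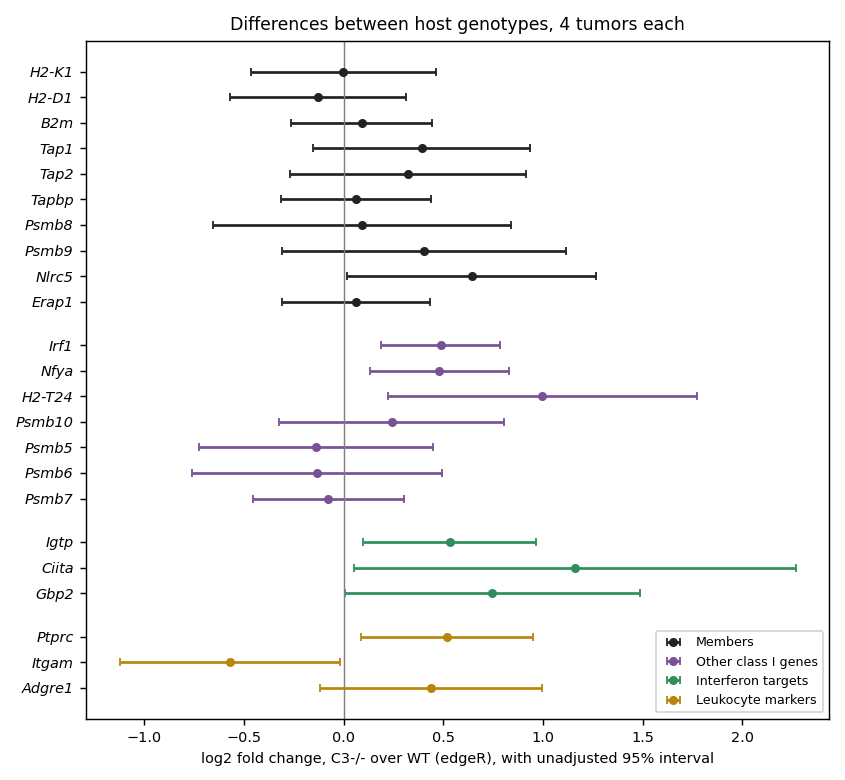
Log2 fold change (C3-/- over WT) from edgeR, with unadjusted 95% intervals, for the 10 members and for other class I genes, interferon targets and leukocyte markers that were named by a fixed rule, some for their small unadjusted p. Intervals of 9 of the 10 members include 0, that of Nlrc5 runs from 0.02 to 1.26, and none of the genes drawn was called after adjustment.

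Interferon targets outside the class I pathway lay almost all on one side of 0. Of the 16 tested, 15 had a log2 fold change above 0 and 1 below, with a median of 0.50, against 49.994% above 0 over all genes tested, but 0 were called by edgeR or DESeq2. An unadjusted p below 0.05 in edgeR, which 5.11% of all genes tested reached (3.03% higher in C3-/- tumors), was reached by 3 of the 16, all higher in C3-/- tumors. Those were Igtp, an interferon-induced GTPase (0.53, SE 0.19), Ciita, the class II counterpart of Nlrc5 (1.16, SE 0.50), and Gbp2, a guanylate-binding protein (0.75, SE 0.33). Gbp2 was 0.36 without C3-/- replicate 3, and Ciita 1.78 without WT replicate 1. Igtp was 5.47 ± 0.682 CPM in WT and 7.93 ± 0.909 in C3-/- tumors (SD, n = 4), without overlap. Gbp2 was 7.69 to 8.98 CPM in WT tumors and 10.5, 6.5, 23.3 and 14.6 in C3-/- replicates, so that C3-/- replicate 2 was again below the WT tumors. The 16 targets summed to 90.1 to 130.1 CPM in WT and to 125, 94.6, 163 and 155 CPM in C3-/- replicates 1 to 4. Igtp overlaps Irgm2 and Ciita overlaps Dexi in the annotation, so their counts carry that uncertainty. These genes share regulators and tumors, and their common sign is not a count of independent observations.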

How the data were processed

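Poly-A selected RNA of 8 KPC tumors was sequenced in read pairs by the authors. The paper's methods name STAR for alignment to mm39, HTSeq for counting and DESeq2, and the submitters' processing notes name HISAT2 2.0.5 and DESeq2 1.20.0, so the aligner is uncertain. The authors deposited raw counts per gene, which entered all tests of genotype. They also deposited FPKM values, found here to be counts per kilobase and per 1 M of a size-factor-scaled total (13.4 M to 23.8 M), used for levels between genes and for ratios. The size-factor-normalized signal and the log2 fold changes and p-values of the authors' own comparison were not used.

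Counts were compared with edgeR 4.0.16 in R 4.3.3 (filterByExpr with a minimum count of 10, TMM, quasi-likelihood test, Benjamini-Hochberg adjustment, threshold 0.05). The genes tested held at least 99.8% of all counts in any tumor, and the median biological coefficient of variation was 0.245. Correlations were computed on log2 CPM (prior count 2). The alternatives were limma-voom (limma 3.58.1), DESeq2 1.42.0, its size factors within edgeR, no filter or at least 10 counts everywhere, a robust fit, a block for the replicate number, and leaving out single tumors. For ratios they were a pseudocount of 0.1, CPM and leaving out single tumors, and for correlations FPKM, genotype means removed and 2 tumors left out. On simulated counts of 16610 genes with 4 tumors each, edgeR recovered 35.8% of changes of 1 and 89.5% of changes of 2 on the log2 scale, and DESeq2 64.8% and 94%, with means of 37.5 and 47.5 false calls per simulation (4.5 and 11.5 in edgeR). Each simulation changed a set of genes together, all above a minimum mean count. Recovery after adjustment depends on how many genes change, and edgeR called 0 in the real tumors. These shares may therefore overstate what could be found for the members.

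The members, lists and tests were chosen with earlier results of these data known. Genes named beyond the members were Psmb5, Psmb6, Psmb7, Psmb10, Irf1, C3, the 3 smallest unadjusted p-values in the wider lists and in those of readers, interferon targets and leukocytes, and the 8 genes most like the members. Other names were added for context, and a gene whose results are not reported here was left unnamed. Counts measure read pairs and not molecules. Positions are those of the deposited table (mm39), and shared stretches were counted in GENCODE vM39 transcripts.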

Additional observations from a re-analysis of the deposited data

Results flagged for a closer look

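In groups of 4 tumors, 1 tumor stood apart from the other 3 by Dixon's 95% criterion in 9 of 102 groups examined, where chance gives about 5.1. Of the 10 members this held for Tap2 in WT replicate 4, at 2.51 on the log2 CPM scale against 3.0 to 3.02 in the other WT tumors. Psmb6, the constitutive counterpart of Psmb9, was at 7.36 in WT replicate 3 (6.68 to 6.78 in the other WT tumors). It was at 7.53 in C3-/- replicate 1 (6.28 to 6.48 in the other C3-/- tumors). In C3-/- replicate 1, Psmb10 was 119% of Psmb7, against 69.5% to 77.9% for the remaining 3. The log2 CPM of Nfya was 5.65 in C3-/- replicate 1, against 6.22 to 6.26 elsewhere among C3-/- tumors. Tmem88, one of the genes most like the members, was at 3.39 in WT replicate 3 and at 2.68 to 2.79 in the other WT tumors. Marker sums stood apart for acinar cells in C3-/- replicate 1 (1752 CPM, others 39.0 to 66.8), hepatocytes in WT replicate 4 (72.3 CPM, others 15.9 to 25.4) and islet cells in WT replicate 2 (94.6 CPM, others 0.498 to 2.94).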

How the results depend on the processing

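No alternative called any of the 10 members or any of the wider class I genes. Over all genes, edgeR called 0, DESeq2 called 16, the fits with 1 tumor left out called 0 to 4 (4 without C3-/- replicate 1), and the fit without both WT replicate 4 and C3-/- replicate 1, chosen after seeing the data, called 4. Of 160 log2 fold changes of members under alternatives, 143 kept their direction and 17 changed it, from values between -0.13 and 0.09 except for Tap2 (0.32). H2-K1 was 0.0038 under the filter of 10 counts in each tumor. With 1 tumor left out, the ranges were -0.22 to 0.15 for H2-K1, -0.35 to 0.015 for H2-D1, -0.011 to 0.20 for B2m, -0.092 to 0.18 for Tapbp, -0.21 to 0.35 for Psmb8 and -0.056 to 0.16 for Erap1. They were 0.27 to 0.59 for Tap1, 0.06 to 0.47 for Tap2, 0.17 to 0.60 for Psmb9 and 0.35 to 0.75 for Nlrc5. With both of those tumors left out, Tap2 was -0.061, Tapbp -0.093 and Psmb8 -0.33. Among the other genes, leaving out 1 tumor gave -0.063 to 0.39 for Psmb10, -0.47 to 0.049 for Psmb5, -0.51 to 0.058 for Psmb6, -0.19 to 0.067 for Psmb7, -0.031 to 0.18 for Mid1ip1, -0.042 to 0.18 for Tmem109 and -0.054 to 0.46 for Tmem88. With both tumors left out, Psmb10 was -0.14, Mid1ip1 -0.054, Tmem109 -0.030, Tmem88 -0.10, Runx3 -0.0038 and Gna15 -0.0084. The cause of these shifts was not tested. The labels do not state that tumors under the same replicate number were paired. Residuals under the same number correlated at -0.03, 0.49, -0.36 and 0.59. Tumors with different numbers were not set beside them, so these values do not decide whether tumors were paired. The replicate block called 0 genes. With the block, Nlrc5 was 0.61 and the median of the members 0.08, against 0.015 to 0.27 with 1 tumor left out and 0.012 without both WT replicate 4 and C3-/- replicate 1, when 5 of the 10 were above 0. With 1 tumor left out, log2 ratios ranged from 0.10 to 0.32 for Psmb8/Psmb5, 0.40 to 0.70 for Psmb9/Psmb6, 0.066 to 0.33 for Psmb10/Psmb7, -0.29 to -0.016 for H2-K1/B2m and -0.43 to -0.17 for H2-D1/B2m. The number of members with an unadjusted p below 0.05 was 0 to 2 over all alternatives. Depth limits Psmb9 and Nlrc5 most, with at least 38 and 44 counts per tumor.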

Other observations

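Marker lists of other cells in the tumor gave no called gene either. All 6 fibroblast markers had log2 fold changes below 0 (median -0.20), with Pdgfra, a receptor of mesenchymal cells, at -0.47 (adjusted p of 0.971 in edgeR). Their summed CPM was 7294 to 10863 in WT and 4345 to 11151 in C3-/- tumors, lowest in C3-/- replicate 2, the tumor with the lowest sum of class I members. All 6 tumor epithelial markers were also below 0 (median -0.18), and endothelial markers had a median of 0.00575. Cd79a and Cd79b, of the B cell receptor, had 1.08 and 0.48, on a summed B cell marker level of 5.15 CPM at most. Hepatocyte markers tested (4) had a median of -2.28 and summed to more CPM in WT replicate 4 than in any other tumor. Acinar markers had a median of 0.81, with 7 of 8 above 0, although only C3-/- replicate 1 (1752 CPM) was above the WT tumors in their sum and the other 3 C3-/- tumors were below all of them. Skeletal muscle markers had a median of 0.50, and the single islet gene tested, Chga, -2.44, with the islet sum at 94.6 CPM in WT replicate 2 and at most 4.16 elsewhere. None of these had an adjusted p below 0.05 in edgeR or DESeq2, and their part in the class I values was not tested.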
